A study of Mus musculus with 20 samples.

Results

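This account describes 10 transcripts that mark T cells and natural killer (NK) cells in mouse liver: Cd3e, Cd3d, Cd4, Cd8a, Nkg7, Gzma, Gzmb, Prf1, Pdcd1 and Klrb1c. The 10 were taken by symbol from 55359 annotated genes, and each was found under 1 gene identifier. Liver RNA came from 20 pieces in 5 groups of 4, all from male wild-type mice whose strain is spelled C56BL/6 in the labels. Every mouse, the controls included, was painted with 50 µL of 0.5% DMBA (7,12-dimethylbenz(a)anthracene, a carcinogen) in acetone on postnatal day 4 to 5, and was killed at 35 weeks. On a high-fat diet with 60 kcal% of fat, exercised mice gave tumour and non-tumour pieces, and so did non-exercised mice. Non-exercised mice on the normal diet, with 12 kcal% of fat, gave the fifth group. Exercised mice ran on a treadmill: 5 training weeks started with a belt speed of 10 m/min, and in the final 10 weeks the daily run, on 5 days weekly, lasted 20 min and had a speed of 18 m/min. The high-fat mice were chosen as obese animals of more than 45 g, and exercised and non-exercised mice were killed on 1 day, within 2 h of the final run. Pieces with the same mouse number in an arm were read as pieces of 1 animal; mice of different arms share only a number. Nothing in the labels describes the tumours beyond the name of the tissue.

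T cells recognise antigen through a receptor whose signal is carried by the CD3 chains, encoded by Cd3e and Cd3d among others. Cd4 and Cd8a encode co-receptors that bind MHC class II and class I, and so mark helper and cytotoxic T cells. Killing by cytotoxic T cells and NK cells is carried out with granules that hold the pore former perforin (Prf1) and the serine proteases granzyme A and B (Gzma, Gzmb), and Nkg7 encodes a protein of the granule membrane. Pdcd1 encodes the inhibitory receptor PD-1, which is raised on activated and on chronically stimulated T cells. Klrb1c encodes the receptor known as NK1.1, carried by NK cells of C57BL/6 mice. The liver is known for a large resident population of NK and NK-like T cells beside its macrophages, the Kupffer cells.

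On GRCm39, Cd3e (chromosome 9, 44910038 to 44920925, minus strand) and Cd3d (chromosome 9, 44893084 to 44898637, plus strand) lie 11400 bases apart. Klrb1c (chromosome 6, 128755448 to 128766178, minus strand) is followed after 24490 bases by its relative Klrb1b (chromosome 6, 128790669 to 128803294, minus strand). Nkg7 lies on chromosome 7 from 43086497 to 43087673 (plus strand), and Gzmb on chromosome 14 from 56496295 to 56499717 (minus strand). Klrb1c shares 413 of its 2961 exonic bases, and Klrb1b 599 of its 2228, with the gene model Gm44511 on the same strand. Reads in those stretches were not counted for any of the genes, so both are under-counted. The other 9 members share no exonic base with another gene on their strand.

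Promoter sequences were taken from RefSeq, on the build GRCm38.p6, for 9 of the 10 members; Cd4 has no entry in the table used. They are shown for the CD3 pair, which stood highest in the same mouse, for Nkg7 and Gzmb of the granule group, and for the neighbours Klrb1c and Klrb1b, whose levels in tumours differed. Each line is 300 bases around the start of the gene, 5′ to 3′ on the strand of the gene. Capitals mark the 6-base motifs searched on both strands: TGTGGT (bound by RUNX factors), AGGAAG (ETS factors), GTGTGA (T-box factors) and GTTAAT (a half-site of the liver factor HNF1), with overlapping matches run together.
Cd3e: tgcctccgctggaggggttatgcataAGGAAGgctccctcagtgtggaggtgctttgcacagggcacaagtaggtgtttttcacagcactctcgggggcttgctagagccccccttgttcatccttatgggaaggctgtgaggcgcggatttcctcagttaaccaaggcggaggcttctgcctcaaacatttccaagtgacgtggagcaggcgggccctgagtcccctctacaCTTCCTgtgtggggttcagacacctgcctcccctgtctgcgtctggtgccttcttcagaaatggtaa
Cd3d: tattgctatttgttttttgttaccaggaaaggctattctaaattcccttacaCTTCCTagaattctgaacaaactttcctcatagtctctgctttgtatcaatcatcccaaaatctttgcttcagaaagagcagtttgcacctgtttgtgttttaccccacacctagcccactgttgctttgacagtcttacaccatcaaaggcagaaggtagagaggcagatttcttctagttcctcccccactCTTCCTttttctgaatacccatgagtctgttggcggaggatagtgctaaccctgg
Nkg7: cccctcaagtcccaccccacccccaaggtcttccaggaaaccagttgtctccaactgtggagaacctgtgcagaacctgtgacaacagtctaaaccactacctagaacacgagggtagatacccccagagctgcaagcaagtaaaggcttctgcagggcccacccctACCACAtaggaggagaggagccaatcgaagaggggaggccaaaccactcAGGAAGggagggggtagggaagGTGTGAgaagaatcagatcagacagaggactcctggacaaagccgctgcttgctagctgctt
Gzmb: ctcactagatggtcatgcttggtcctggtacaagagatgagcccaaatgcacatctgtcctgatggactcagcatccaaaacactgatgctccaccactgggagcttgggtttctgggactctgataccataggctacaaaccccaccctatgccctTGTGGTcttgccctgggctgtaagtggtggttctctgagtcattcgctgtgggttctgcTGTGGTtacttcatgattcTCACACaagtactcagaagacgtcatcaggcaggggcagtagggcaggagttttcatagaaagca
Klrb1c: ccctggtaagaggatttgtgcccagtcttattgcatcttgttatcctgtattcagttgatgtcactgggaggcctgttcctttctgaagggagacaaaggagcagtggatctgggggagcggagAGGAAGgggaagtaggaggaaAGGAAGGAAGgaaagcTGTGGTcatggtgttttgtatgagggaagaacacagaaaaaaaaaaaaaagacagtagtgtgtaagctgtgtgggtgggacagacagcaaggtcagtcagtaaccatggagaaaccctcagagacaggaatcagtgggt
Klrb1b: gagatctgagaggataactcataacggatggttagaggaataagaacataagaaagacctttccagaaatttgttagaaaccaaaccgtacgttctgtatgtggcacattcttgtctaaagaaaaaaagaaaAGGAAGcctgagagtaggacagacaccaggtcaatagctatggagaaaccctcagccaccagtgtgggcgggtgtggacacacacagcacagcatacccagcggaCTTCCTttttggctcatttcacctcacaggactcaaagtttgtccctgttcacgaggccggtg
TGTGGT was found in 5 of the 9 member promoters, against 16.8% of 32851 promoters of the same length. AGGAAG was found in 6 of the 9, against 35.4%, and GTGTGA in 2 of the 9, against 14.5%. GTTAAT was found in 0 of the 9, against 7.1%. Such matches describe the letters of these windows and say nothing of binding.

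The files hold raw read counts per gene from a stranded, polyadenylated library of each piece, with 16471378 to 20271948 counts per library. Counts were scaled to library size (CPM, a count divided by the library's total after TMM scaling, times 1000000), so that 1 CPM stood for 15.72 to 21.52 counts. Hepatocyte genes (Alb, Apob, Cps1, Ttr, Hnf4a, Serpina1a) summed to between 51776 and 201953 CPM in every library. The summed level of the 10 members was between 2.26 and 14.8 CPM. Both pieces of mouse 3 of the non-exercised high-fat arm stood apart from all other libraries in these genes, and results that rest on them are given with and without that animal, an alternative chosen after its values were seen. In whole tissue, fewer cells of a type and less RNA per cell cannot be told apart.

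Every member was scarce in these livers. Counts of a member in a library lay between 0 and 64. Scaled by gene length and library total (TPM, which sums to 1000000 in each library) and averaged over the 20 libraries, Nkg7 was highest at 2.08, followed by Gzmb at 1.30, Gzma at 1.002, Cd4 at 0.789 and Cd3d at 0.647. Cd8a had 0.427, Prf1 0.418, Cd3e 0.413, and Klrb1c and Pdcd1 0.246 TPM each. On that scale the members lay between the 1.86th percentile (Pdcd1) and the 23.6th percentile (Nkg7) of the genes tested. Of the 10 members, 7 had at least 0.537 CPM in 4 or more libraries, passed the filter on low counts and were tested. Prf1 reached that level, on library totals before TMM scaling, in only 4 libraries. These were tumours 1, 3 and 4 and non-tumour piece 3 of the non-exercised high-fat mice. Cd3d also reached it in only 4 libraries: normal-diet liver 2, and tumours 1 and 3 and non-tumour piece 3 of the non-exercised high-fat mice. Cd3e reached it in 9 libraries, none of them a non-tumour piece of exercised mice. Gzma, Pdcd1 and Klrb1c reached that level in 3, 2 and 2 libraries and were not tested, so their values are given without a test.

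Of the 7 tested members 0 passed an adjusted p of 0.05 in any of the 5 comparisons of groups, nor in the test of whether tumour differences depended on exercise (edgeR quasi-likelihood test, Benjamini-Hochberg over 14428 genes). The Wald test of DESeq2 also called 0 of them in each. At an unadjusted p under 0.05, edgeR had 1 member in the diet comparison and 1 in the exercise comparison of non-tumour pieces, Cd3e in both cases, and 0 in the other comparisons. The shares of all genes at that p were 39% with diet, 8.34% and 8.68% with exercise in non-tumour pieces and in tumours, 44.4% and 45.6% in tumours of exercised and of non-exercised mice, and 2.03% for the interaction. In group means, 6 members were highest in non-tumour pieces of non-exercised high-fat mice (Cd3e, Cd3d, Cd8a, Nkg7, Gzma, Gzmb), 2 in their tumours (Prf1, Pdcd1) and 2 in normal-diet liver (Cd4, Klrb1c). No member had its highest mean in a group of exercised mice. These orders carry no test beyond the comparisons given below, and levels of exercised and normal-diet mice were not compared.

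**Figure D1:**
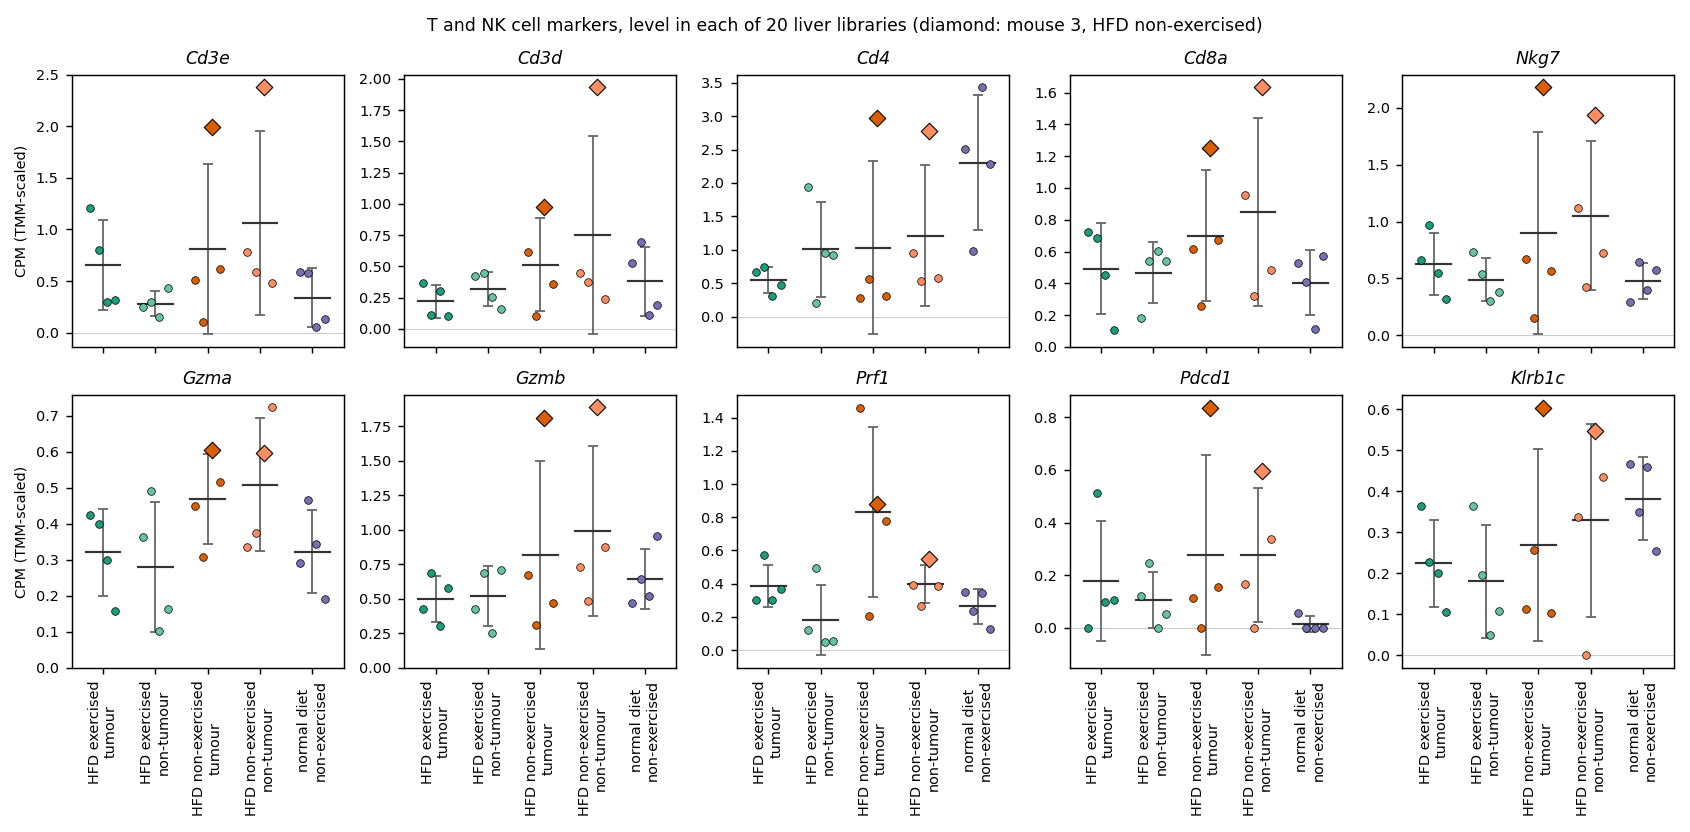
Level of each of the 10 markers in each library, in CPM with TMM scaling, with a panel per gene and a column per group of 4. Bars show the mean and SD of a group, circles the libraries, and diamonds the pieces of mouse 3 of the non-exercised high-fat arm, which in Cd3e reach 1.998 CPM in the tumour and 2.38 CPM in the non-tumour piece.

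Cd3e, the epsilon chain of CD3, had 20, 14, 6 and 6 counts in tumours of exercised mice, and 4, 6, 3 and 8 in their non-tumour pieces. Tumours of non-exercised mice had 9, 2, 43 and 12 counts, their non-tumour pieces 14, 11, 48 and 10, and normal-diet livers 10, 10, 1 and 2. The counts of 43 and 48 are those of mouse 3, and no other library passed 20. Cd3d followed with 6, 2, 6 and 2 counts in tumours and 7, 9, 5 and 3 in non-tumour pieces of exercised mice. It had 11, 2, 21 and 7 in tumours and 8, 7, 39 and 5 in non-tumour pieces of non-exercised mice, and 9, 12, 2 and 3 in normal-diet livers. Here too the highest pair of libraries, at 21 and 39 counts, belongs to mouse 3.

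Of the co-receptor genes, Cd8a shared that order and Cd4 did not. Cd4 counts were 11, 13, 6 and 9 in tumours of exercised mice and 32, 4, 19 and 17 in their non-tumour pieces. They were 5, 11, 64 and 6 in tumours and 17, 10, 56 and 12 in non-tumour pieces of non-exercised mice, and 43, 17, 60 and 36 in normal-diet livers. Thus 3 normal-diet livers held more Cd4 than any high-fat library outside mouse 3, among them the pair with only 1 and 2 counts of Cd3e. Cd8a counts were 12, 12, 9 and 2 in tumours and 3, 11, 12 and 10 in non-tumour pieces of exercised mice. In non-exercised mice Cd8a had 11, 5, 27 and 13 in tumours and 17, 6, 33 and 10 in non-tumour pieces, and in normal-diet livers 9, 7, 2 and 9. The highest pair, at 27 and 33 counts, is again that of mouse 3, and the groups overlap throughout.

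Of the granule genes, Nkg7 had 11, 17, 11 and 6 counts in tumours and 12, 11, 6 and 7 in non-tumour pieces of exercised mice. Non-exercised mice had 12, 3, 47 and 11 in tumours and 20, 8, 39 and 15 in non-tumour pieces, and normal-diet livers 5, 11, 7 and 9. Gzmb had 7, 12, 6 and 11 counts in tumours and 7, 14, 5 and 13 in non-tumour pieces of exercised mice. In non-exercised mice it had 12, 6, 39 and 9 in tumours and 13, 9, 38 and 18 in non-tumour pieces, and in normal-diet livers 8, 11, 9 and 15. For both genes the libraries of mouse 3 are the highest pair and the rest overlap.

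Gzma and Prf1 did not follow mouse 3 in that way. Gzma counts were 7, 7, 6 and 3 in tumours and 6, 10, 2 and 3 in non-tumour pieces of exercised mice. They were 8, 6, 13 and 10 in tumours and 6, 7, 12 and 15 in non-tumour pieces of non-exercised mice, and 5, 8, 6 and 3 in normal-diet livers. Prf1 counts were 5, 10, 6 and 7 in tumours and 2, 10, 1 and 1 in non-tumour pieces of exercised mice. Tumours of non-exercised mice had 26, 4, 19 and 15, their non-tumour pieces 7, 5, 11 and 8, and normal-diet livers 6, 4, 6 and 2. The highest Prf1 library was the tumour of mouse 1, not that of mouse 3.

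The inhibitory receptor gene Pdcd1 had a total of 67 counts over the 20 libraries and 0 in 7 of them. Its counts were 0, 9, 2 and 2 in tumours and 2, 5, 0 and 1 in non-tumour pieces of exercised mice. Tumours of non-exercised mice had 2, 0, 18 and 3, their non-tumour pieces 3, 0, 12 and 7, and normal-diet livers 1, 0, 0 and 0. A count of 0 allows up to 3 counts, or 0.1513 to 0.191 CPM in these 7 libraries, so lower levels were not detectable. Klrb1c had 6, 4, 4 and 2 counts in tumours and 6, 4, 1 and 2 in non-tumour pieces of exercised mice. It had 2, 5, 13 and 2 in tumours and 6, 0, 11 and 9 in non-tumour pieces of non-exercised mice, and 8, 6, 8 and 4 in normal-diet livers. The libraries of mouse 3 are the highest pair for both genes.

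Mouse 3 of the non-exercised arm was the highest animal for most of these transcripts. For 7 of the 10 members (Cd3e, Cd3d, Cd8a, Nkg7, Gzmb, Pdcd1, Klrb1c) both of its pieces were above the other 18 libraries. That pattern was found in 3.25% of all genes tested, a set that leaves out Pdcd1 and Klrb1c. Its tumour had a summed marker level of 14.1 CPM, while the other tumours of the arm had at most 5.51 CPM. Its non-tumour piece had 14.8 CPM, while the other 3 mice had 3.37 to 6.23 CPM. With 0.5 CPM added to each, Cd3e was 2.48-fold the median of the other 3 mice in the tumour and 2.65-fold in the non-tumour piece. For Cd4 these ratios were 4.29-fold and 3.03-fold, while for Prf1 they were 1.08-fold and 1.18-fold and for Gzma 1.16-fold and 1.25-fold. Over all genes tested the median ratio was 1.002 in the tumour and 1.001 in the non-tumour piece.

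Other lists show which genes moved with mouse 3. Both of its pieces were above the other 18 libraries for 13 of 14 further genes of the T cell receptor complex and its signalling. The exception, Zap70, went the other way: mouse 3 ranked 20th of all libraries in the tumour and 16th in the non-tumour piece. The ratios of Zap70 to the median of the other 3 mice were 0.46 and 0.78. Cd3g, the third CD3 chain, had 55 counts in its tumour and 66 in its non-tumour piece, where the other 18 libraries had at most 23. Lck, the kinase that starts receptor signalling, had 70 and 64 counts, where no other library passed 23. The same held for 4 of 15 further genes of T cell subsets, activation and checkpoints, 6 of 6 pan-leukocyte genes, 5 of 12 cytotoxic effector genes, 2 of 11 further NK and gamma-delta T cell genes, 4 of 12 macrophage genes, 3 of 7 dendritic cell genes, 3 of 7 neutrophil genes, 2 of 8 lymphocyte-attracting chemokines and 2 of 9 checkpoint ligands and regulators. It held for 0 of 8 B and plasma cell genes, 0 of 9 genes of MHC class I presentation and 0 of 6 hepatocyte genes. Ptprc, which encodes the leukocyte antigen CD45, had 57.8 CPM in its tumour and 47.4 CPM in its non-tumour piece, with at most 31.9 CPM elsewhere. S100a8, a neutrophil gene, had 11.6 and 15.9 CPM there, against at most 7.78 CPM in the other libraries. The 7 neutrophil genes summed to 43.0 CPM in its tumour and 53.3 CPM in its non-tumour piece, where the other 3 mice of the arm had at most 7.81 and 8.30 CPM and exercised mice up to 29.9 CPM. The 12 macrophage genes summed to 727 CPM in its tumour, above the 191.7 to 372 CPM of the other 3, while its non-tumour piece lay within their range of 467 to 639 CPM. The part of such cells in the marker levels was not tested.

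**Figure D2:**
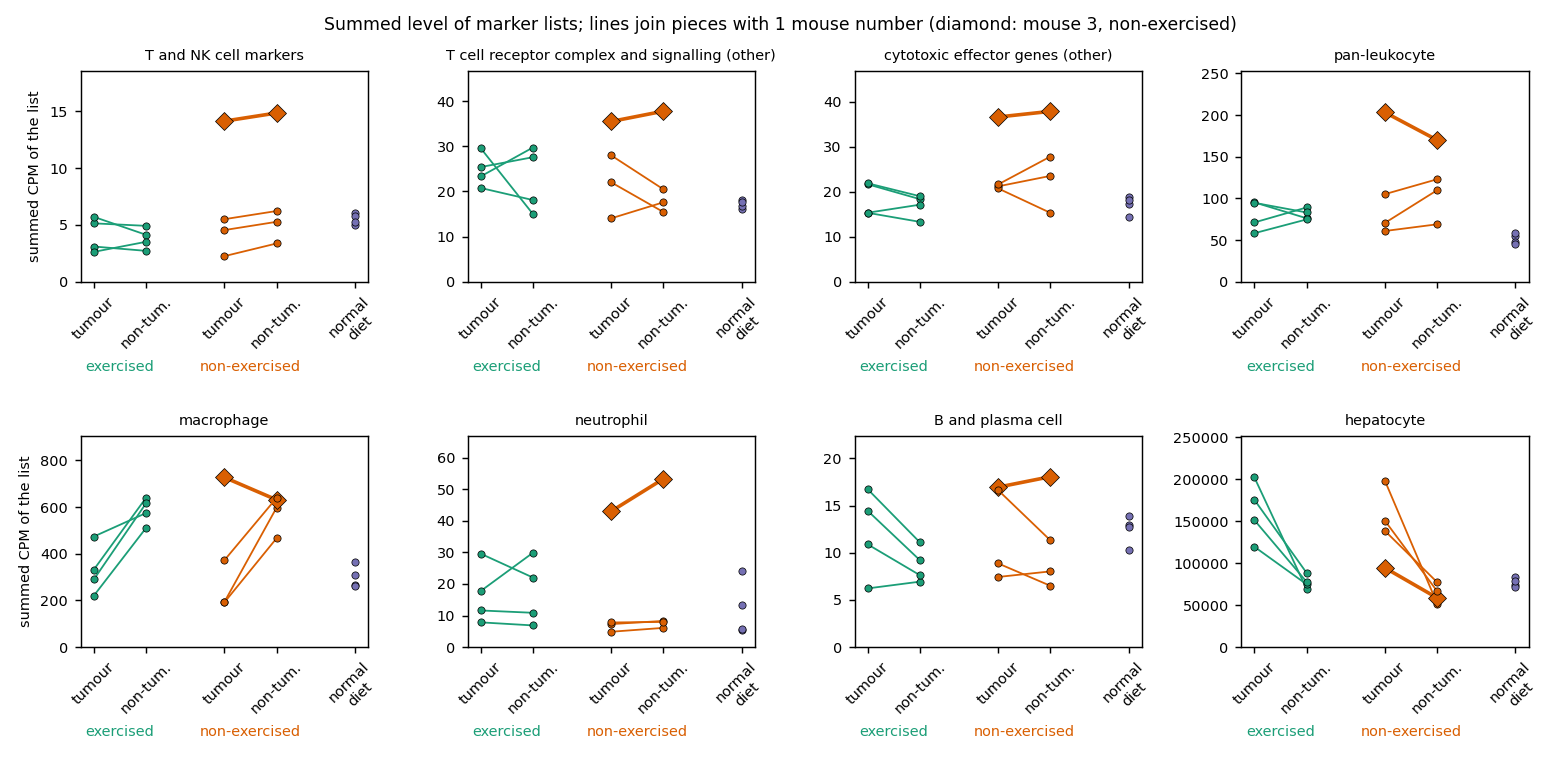
Summed CPM of 8 marker lists in each library, with lines that join the tumour and non-tumour piece of 1 mouse number within the exercised and the non-exercised high-fat arms, and normal-diet livers at the right. Diamonds mark mouse 3 of the non-exercised arm, at 14.1 CPM (tumour) and 14.8 CPM (non-tumour) in the list of 10 markers; in the macrophage list its non-tumour piece lies among the other mice.

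The diet comparison set non-tumour pieces of non-exercised high-fat mice against livers of non-exercised normal-diet mice. Of the 7 tested members 0 were called, where 25.9% of all genes were called, and 1 had an unadjusted p under 0.05, where 39% of all genes did. Of the 7, 6 had a positive log2 fold change and Cd4 a negative one, and the median was 0.96 against 0.01 over all genes. Prf1, among the positive members, passed the filter through no normal-diet library. The 5 members still tested without both pieces of mouse 3 then had a median of 0.53 (1.07 with all libraries). Cd3e averaged 1.06 ± 0.89 CPM on the high-fat diet and 0.337 ± 0.284 CPM on the normal diet (SD, n = 4 each). Its log2 fold change was 1.63 ± 0.79 (SE), with a 95% interval of -0.03 to 3.29 and an edgeR adjusted p of 0.125. Without both pieces of mouse 3 that log2 fold change was 0.85 ± 0.68 (edgeR adjusted p = 0.384). Nkg7 averaged 1.05 ± 0.65 CPM and 0.476 ± 0.159 CPM (log2 fold change 1.14 ± 0.61, edgeR adjusted p = 0.169).

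Cd4 had the opposite sign with diet. It averaged 1.21 ± 1.06 CPM on the high-fat diet and 2.31 ± 1.01 CPM on the normal diet, a log2 fold change of -0.92 ± 0.70 with an edgeR adjusted p of 0.345. The high-fat library of 2.78 CPM is that of mouse 3, and the other 3 lie between 0.535 and 0.953 CPM, below the normal-diet range of 0.989 to 3.44 CPM. Without both pieces of mouse 3, Cd4 was lower on the high-fat diet by the same test (log2 fold change -1.74 ± 0.54, edgeR adjusted p = 0.0322). Without its non-tumour piece alone the value was also -1.74, but the adjusted p was 0.113. Within a library the log2 ratio of Cd8a to Cd4 averaged -0.42 ± 0.36 on the high-fat diet and -2.49 ± 1.46 on the normal diet. The groups do not overlap, and the exact two-sided permutation p of 0.0286 is the smallest that 4 against 4 can give; over the 25 ratio tests the adjusted p was 0.571. No other ratio reached that p: the ratios tried were Cd8a to Cd4, Pdcd1 to Cd8a, Gzmb to Cd3e, Klrb1c to Cd3e and Cd3e to Ptprc, in 5 comparisons each.

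Pdcd1 was not tested with the rest because of its low counts. High-fat non-tumour pieces held 22 counts in all, and normal-diet livers 1. Scaled for library size this is a ratio of 19.2, with a 95% interval of 3.105 to 793 that covers counting error only and not the spread between mice. Without mouse 3 the ratio was 11.8 (1.68 to 512.4). In a fit of 29517 genes with no filter on low counts, Pdcd1 had an edgeR adjusted p of 0.142, so the difference did not pass.

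Several lists of other immune genes held calls with diet. All 6 pan-leukocyte genes rose, among them Ptprc (log2 fold change 1.18 ± 0.31, edgeR adjusted p = 0.0103), Cd53 (1.23 ± 0.29, adjusted p = 0.00617) and Laptm5 (1.21 ± 0.33, adjusted p = 0.0141). Of 6 tested lymphocyte-attracting chemokines 4 rose and 1 fell, with Cxcl10 at 1.90 ± 0.42 (edgeR adjusted p = 0.00414) and Cxcl9 at 1.84 ± 0.46 (adjusted p = 0.00902), ligands of CXCR3, a chemokine receptor of activated T cells. Of 6 tested checkpoint ligands and T cell regulators 4 rose, among them Cd274, which encodes the PD-1 ligand PD-L1 (1.56 ± 0.36, edgeR adjusted p = 0.00446), and the lymphocyte growth factor genes Il15 (1.21 ± 0.24, adjusted p = 0.00156) and Il7 (1.93 ± 0.54, adjusted p = 0.0114). Of 9 genes of MHC class I presentation 6 rose and 0 fell. Of 12 macrophage genes 8 rose. Over all genes tested, 14% rose with diet. Of the 29 calls in these 5 lists, 8 were lost without the non-tumour piece of high-fat mouse 3, with edgeR adjusted p of 0.0551 for Cd86, 0.0613 for Adgre1, 0.063 for Cd52, 0.0643 for Cxcl13 (the chemokine gene that fell), 0.0793 for Coro1a, 0.0883 for Csf1r, 0.125 for Rac2 and 0.145 for Cxcl16. Of the 8 fits that left out 1 library, Cxcl16 and Rac2 lost their calls in 7 each, Csf1r in 6, Adgre1 and Cxcl13 in 5 each, Cd86 in 4, Coro1a in 3 and Cd52 in 1. The other 21 calls held in each of those fits. When both pieces of high-fat mouse 3 were left out, edgeR still called all 29 genes except Cxcl16, each in the same direction. Of 7 tested B and plasma cell genes 1 fell, Ms4a1 (-1.35 ± 0.43, edgeR adjusted p = 0.0255), a call lost in 4 of the 8 fits. The median log2 fold change of that list was -0.77, with Cd22 and Jchain positive and the rest negative. Of 6 tested dendritic cell genes 1 rose, Ccl22 (3.48 ± 0.99, edgeR adjusted p = 0.00446).

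Other T and NK cell genes held calls in part of each list, where 14% of all genes rose with diet and 25.9% were called in either direction. Of 11 tested genes of the receptor complex 1 rose, Lat (log2 fold change 1.75 ± 0.61, edgeR adjusted p = 0.0362), an adaptor of receptor signalling. That call was lost without normal-diet mouse 1, 3 or 4 or without high-fat mouse 1 or 3, and without high-fat mouse 3 the value was 1.30. Of 10 tested subset and activation genes 1 rose, Tcf7 (0.73 ± 0.17, edgeR adjusted p = 0.0053), a transcription factor of naive and memory T cells. Of 5 tested effector genes 2 rose, the chemokine genes Ccl5 (1.90 ± 0.59, edgeR adjusted p = 0.0249) and Ccl4 (2.76 ± 1.10, adjusted p = 0.0435). Without the non-tumour piece of high-fat mouse 3, Ccl5 had 1.25 (edgeR adjusted p = 0.127) and Ccl4 2.38 (adjusted p = 0.118). Leaving out normal-diet mouse 1, 3 or 4 also ended both calls, and for Ccl4 so did leaving out high-fat mouse 1 or 4. Without both pieces of mouse 3, Ccl5 was still called (1.26, edgeR adjusted p of 0.05 after rounding). Ccl4 was not called in that fit (2.38, edgeR adjusted p = 0.113). Of 6 tested NK genes, Cd244a, a receptor of NK cells, rose (2.10 ± 0.61, edgeR adjusted p = 0.0118). Zbtb16, which encodes PLZF, a transcription factor found in NK-like T cells, fell (-2.39 ± 0.84, edgeR adjusted p = 0.0482). Which cells of the liver held Zbtb16 was not tested, so its fall is not read as a change in such T cells. The Zbtb16 call was lost in each of the 8 fits that left out 1 library (-2.62 to -2.18).

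**Figure D3:**
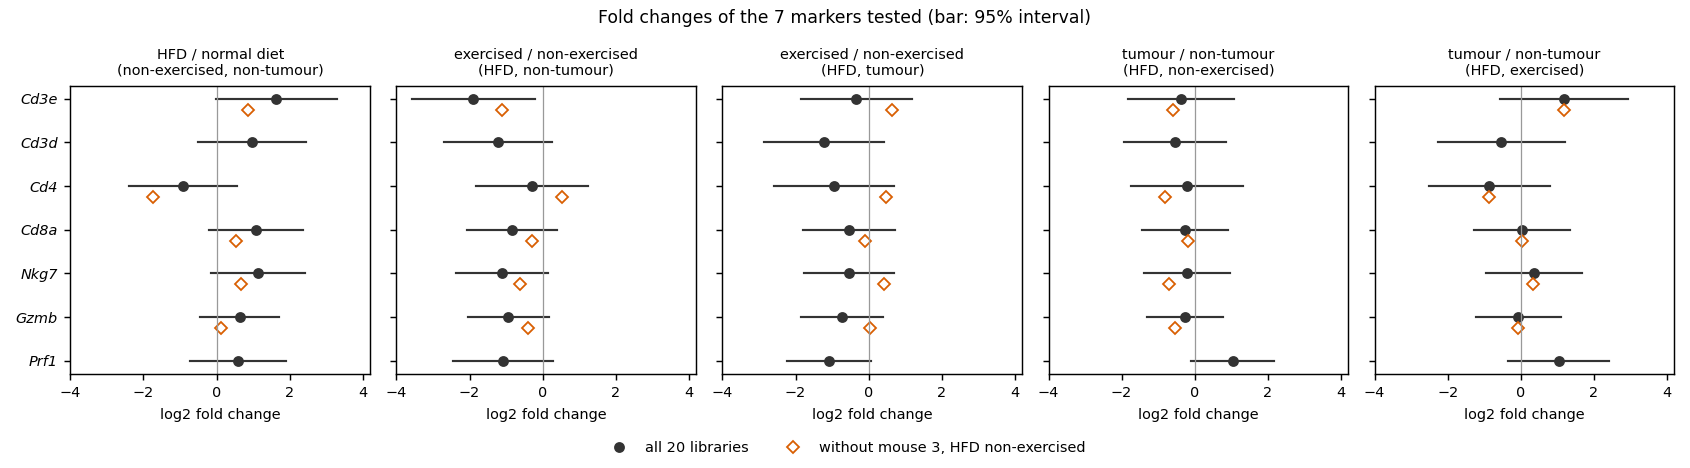
Log2 fold change of the 7 tested members in the 5 comparisons of groups, with 95% intervals from the fit to all 20 libraries (circles), and the value without both pieces of mouse 3 of the non-exercised arm (diamonds; Cd3d and Prf1 did not pass the filter there). For Cd3e the value moves to 0.85 in the diet panel and to -1.11 in the panel of exercise in non-tumour pieces.

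Exercise was examined by setting exercised against non-exercised high-fat mice in pieces of the same kind. In non-tumour pieces 0 of the 7 members were called, where 0.0139% of all genes were called. All 7 had a negative log2 fold change, between -1.90 (Cd3e) and -0.29 (Cd4), with a median of -1.09 against -0.01 over all genes. Cd3d and Prf1 passed the filter through no library of exercised mice, and Cd3e through none of their non-tumour pieces. The signs of these genes are thus no independent support for a fall, and the median of the 7 includes them. For the 5 still tested without both pieces of mouse 3 the median was -0.41 (-0.93 with all libraries). Cd3e averaged 0.281 ± 0.118 CPM in exercised mice and 1.06 ± 0.89 CPM in non-exercised mice (log2 fold change -1.90 ± 0.80, unadjusted p = 0.0252 and adjusted p = 0.527 by edgeR). Its 4 libraries of exercised mice, at 0.151 to 0.433 CPM, all lay below those of non-exercised mice, at 0.484 to 2.38 CPM. Libraries did not overlap, in that direction, for 1 of the 7 members and for 2.27% of all genes. Without both pieces of mouse 3 the log2 fold change of Cd3e was -1.11 ± 0.69 (edgeR adjusted p = 0.904), and that of Cd4 turned to 0.53.

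The other members had negative values with wide intervals. Cd3d had a log2 fold change of -1.22 ± 0.71 (95% interval -2.71 to 0.27), Nkg7 -1.11 ± 0.60 (-2.37 to 0.15) and Prf1 -1.09 ± 0.66 (-2.46 to 0.28). Gzmb had -0.93 ± 0.52 (-2.03 to 0.16) and Cd8a -0.84 ± 0.59 (-2.08 to 0.40). These intervals include 0 as well as falls of more than 2-fold. The log2 ratio of Cd3e to Ptprc averaged -6.15 ± 0.59 in exercised mice and -5.03 ± 0.69 in non-exercised mice, with an exact permutation p of 0.0571 and an adjusted p of 0.571. Of the 13 other lists none had a called gene here; 11 tested genes of the receptor complex had a median log2 fold change of -1.15, and 6 pan-leukocyte genes had -0.55. These medians were -0.35 and -0.32 without both pieces of mouse 3, with 9 of the receptor genes still tested (-1.15 for those 9 with all libraries). The pan-leukocyte genes summed to 74.9 to 89.2 CPM in exercised mice and 69.0 to 170 CPM in non-exercised mice, and without mouse 3 to at most 123 CPM there.

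In tumours, 0 of the 7 members were called with exercise, where 0.0208% of all genes were called. All 7 values were again negative, with a median of -0.73 against 0.01 over all genes. Cd3d and Prf1 passed the filter through no library of exercised mice, so their signs are no independent support for a fall. Without both pieces of mouse 3 of the non-exercised arm, 4 of the 5 members that could still be tested turned positive: Cd3e had 0.64 (-0.34 with all libraries), Cd4 0.46 (-0.95), Nkg7 0.41 (-0.54) and Gzmb 0.03 (-0.73). Prf1, which passed the filter only through libraries of non-exercised mice, had a log2 fold change of -1.09 ± 0.55 (edgeR adjusted p = 0.588). It averaged 0.386 ± 0.128 CPM in tumours of exercised mice and 0.831 ± 0.514 CPM in tumours of non-exercised mice. The comparisons in tumours and in non-tumour pieces use different libraries, though pieces of the same mice.

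Tumours were set against non-tumour pieces within each arm. In exercised mice 0 of the 7 members were called, where 34.6% of all genes were called, and in non-exercised mice 0 of 7, where 35.8% were. The median log2 fold change of the 7 was 0.04 in exercised mice, against 0.01 over all genes, and -0.27 in non-exercised mice, against -0.01. The member with the smallest p in both arms was Prf1. Because Prf1 passed the filter only through non-exercised high-fat libraries, mostly tumours, its rank is no independent support for a tumour difference. In exercised mice it averaged 0.386 ± 0.128 CPM in tumours and 0.180 ± 0.211 CPM in non-tumour pieces (log2 fold change 1.04 ± 0.66, edgeR adjusted p = 0.219). In non-exercised mice it averaged 0.831 ± 0.514 CPM in tumours and 0.398 ± 0.114 CPM in non-tumour pieces (1.04 ± 0.54, adjusted p = 0.135). Prf1 passed without non-tumour replicate 2 of the exercised arm (2.27, adjusted p = 0.0169), and in the non-exercised arm without tumour replicate 2 (1.36, adjusted p = 0.0451).

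Mouse 3 of the non-exercised arm had summed levels of 14.1 CPM in tumour and 14.8 CPM in non-tumour liver, and the other 7 high-fat mice had 2.26 to 5.71 CPM in tumours and 2.72 to 6.23 CPM in non-tumour pieces. Cd8a averaged 0.492 ± 0.285 CPM in tumours and 0.468 ± 0.193 CPM in non-tumour pieces of exercised mice, with a 95% interval for the log2 fold change of -1.27 to 1.35. That interval includes differences of over 2-fold either way. Cd3e averaged 0.656 ± 0.436 CPM in tumours and 0.281 ± 0.118 CPM in non-tumour pieces of exercised mice (log2 fold change 1.19 ± 0.83, edgeR adjusted p = 0.273). Interaction of tumour and exercise was called for 0 of 7 members and 0% of all genes, with 2.03% of all genes, and no member, at an unadjusted p under 0.05.

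Of the NK receptor genes examined, 1 stood far from the rest in tumours. Klrb1b, the neighbour of Klrb1c, encodes the inhibitory NK receptor NKR-P1B. It had 1288, 1314, 420 and 897 counts in tumours of exercised mice, and 3, 48, 1 and 2 in their non-tumour pieces. In non-exercised mice it had 1874, 558, 446 and 1073 counts in tumours and 3, 25, 23 and 8 in non-tumour pieces. Normal-diet livers had 2, 0, 2 and 2 counts. All 8 tumours thus lay above all 12 other libraries. The share of all genes with that pattern was not worked out. Between tumours and non-tumour pieces, 34.6% of all genes were called in exercised and 35.8% in non-exercised mice.

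Klrb1b averaged 55.3 ± 26.7 CPM in tumours and 0.676 ± 1.126 CPM in non-tumour pieces of exercised mice, a log2 fold change of 6.27 ± 0.84 (edgeR adjusted p = 7.43e-05). In non-exercised mice it averaged 52.5 ± 38.2 CPM in tumours and 0.759 ± 0.568 CPM in non-tumour pieces, a log2 fold change of 6.09 ± 0.82 (edgeR adjusted p = 8.49e-05). Both calls held in every alternative tried, DESeq2 and each left-out library included. The tumour of mouse 3 of that arm had less Klrb1b (20.7 CPM) than the other 3 tumours of the arm, at 28.6 to 105.3 CPM. Klrb1c stayed at 2 to 13 counts in the 8 tumours and 0 to 11 in the 8 non-tumour pieces. Of the other receptor genes plotted, Klrb1a had at most 7 counts in any library, Klrb1f at most 6 and Ncr1, which encodes the NK receptor NKp46, at most 11. Klrk1, which encodes the activating receptor NKG2D, had 10 to 53 counts in the 8 tumours and 23 to 42 in the 8 non-tumour pieces. Klrb1a and Klrb1f were added to the plot after their values were seen. Outside the lists, A2ml1 and Pzp were also called higher in tumours of both arms. Those calls held in each of the 8 fits per arm that left out 1 library, at 2.66 to 3.42 and 1.54 to 1.92. Clec2d was called lower in tumours of exercised mice, a call lost in 6 of the 8 fits.

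**Figure D4:**
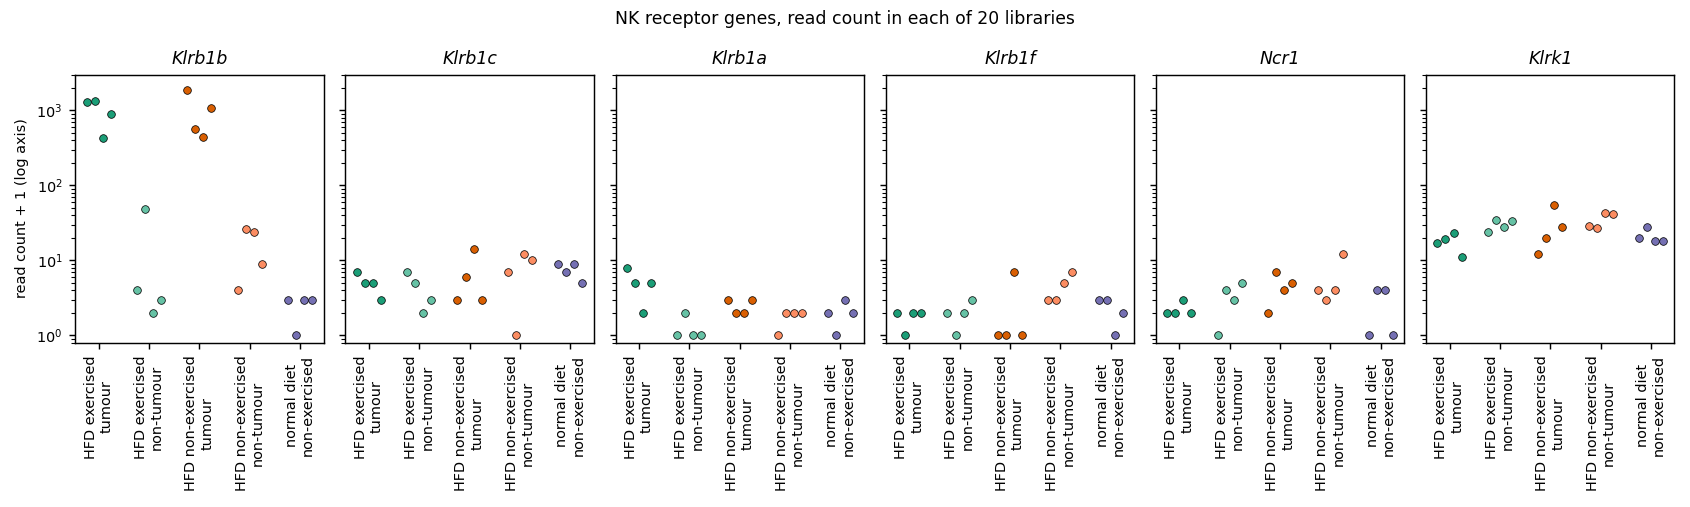
Read counts plus 1, on a log axis, of 6 NK receptor genes in each library, with the tumour group of each arm to the left of its non-tumour group and normal-diet liver at the right. Klrb1b reaches 420 to 1874 counts in the 8 tumours and at most 48 in the other 12 libraries, while Klrb1c stays at or below 13 counts everywhere.

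Further lists in tumours showed few calls among lymphocyte genes, where 34.6% of all genes were called in exercised and 35.8% in non-exercised mice. Of the tested genes of the receptor complex and of cytotoxic effectors 0 were called in either arm. In subset and activation genes 1 of 10 was called in non-exercised mice, Tcf7 (log2 fold change 0.44 ± 0.16, edgeR adjusted p = 0.0432). The Tcf7 call was lost without tumour replicate 1 or 4, or non-tumour replicate 1, 2 or 4, at values of 0.37 to 0.45. The chemokine gene Cxcl11 was higher in tumours of exercised mice (1.31 ± 0.31, edgeR adjusted p = 0.00395) and of non-exercised mice (1.18 ± 0.30, adjusted p = 0.00618). Cxcl12, another lymphocyte chemokine, was lower in tumours of exercised mice (-1.07 ± 0.34, edgeR adjusted p = 0.0217) and of non-exercised mice (-1.03 ± 0.34, adjusted p = 0.0254). Each Cxcl12 call was lost in 4 of the 8 fits that left out 1 library, at -0.99 to -0.84 in exercised and -1.02 to -0.77 in non-exercised mice. Cxcl13, a chemokine for B cells, had 1.97 ± 0.87 in tumours of exercised mice and did not pass (edgeR adjusted p = 0.0914), and was higher in tumours of non-exercised mice (5.49 ± 1.11, adjusted p = 0.00104). The interaction of Cxcl13 was -3.52 ± 1.41 (edgeR adjusted p = 1). Nlrc5, an activator of MHC class I genes, was higher in tumours of exercised mice (0.64 ± 0.16, adjusted p = 0.00545) and of non-exercised mice (0.54 ± 0.16, adjusted p = 0.0125) by the same test. Of the macrophage genes, Clec4f, Timd4 and Vsig4 were called lower in tumours of both arms, and Marco in those of exercised mice. Each of these macrophage calls was lost in 2 to 7 of the 8 fits that left out 1 library. The dendritic cell genes Ccl22 and Zbtb46 were called higher in tumours of exercised mice, calls lost in 6 and 7 of the 8 fits. Some calls appeared when both pieces of mouse 3 of the non-exercised arm were left out, and these genes were named after their values were seen. Thy1, a T cell surface gene of the receptor list, was then called higher (1.06, adjusted p = 0.0235) and Klrk1 lower (-0.78, adjusted p = 0.0377) in tumours of exercised mice by edgeR. The co-stimulatory receptor gene Icos was then called lower in tumours of non-exercised mice (-2.16, edgeR adjusted p = 0.00202) and higher with diet (1.15, adjusted p = 0.0491), and the inhibitory receptor gene Lag3 lower with diet (-1.11, adjusted p = 0.0216).

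Across the 20 libraries the log2 CPM values of members varied together to a moderate degree. Over the 45 pairs of members Pearson's r ran from -0.21 to 0.79 with a median of 0.49. Without both pieces of mouse 3 the median was 0.27, over 18 libraries. All of these share library depth and low counts, so r is given as a description. Among 11956 genes with a mean of at least 1 CPM, those most like Cd3e were Rcn1 (r = 0.837), Wipf1 (0.813), Rinl (0.808), Irf8 (0.79) and Coro2a (0.785). Without mouse 3 their r with Cd3e was 0.759, 0.687, 0.691, 0.619 and 0.734. Those most like Nkg7 were Irf8 (0.869), Pip4k2a (0.855), Wipf1 (0.836), Ccl5 (0.824) and Rasal3 (0.822), and without mouse 3 these were 0.729, 0.722, 0.673, 0.614 and 0.64.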

How the data were processed

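Per the labels' protocols, RNAiso Plus was used on frozen liver, followed by a stranded mRNA library kit. The authors deposited raw counts of reads for each gene, from featureCounts 2.0.5 (strand setting 2, exons, GENCODE vM27), per the file headers. The submitters' processing notes name Trim Galore 0.6.10, STAR 2.7.11a and GRCm39. The headers set no option for multi-mapping or overlapping reads, so such reads were not counted.

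From these counts, genes were filtered with filterByExpr (minimum count 10), scaled by TMM, and fitted with the quasi-likelihood test of edgeR 4.0.16 (R 4.3.3) to 5 group means over 20 libraries, with 15 residual degrees of freedom; all tests are two-sided. TPM used the length column of the deposited files. SE are Wald errors of the fit. Ratios within a library (0.5 counts added) had exact permutation tests. The fit was tested on simulated data, for the exercise comparison of non-tumour pieces. Known changes were placed only in genes that averaged over 0.5 CPM, so members below that level were not covered.

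The text names all 10 members. Of other lists it takes up to 4 called genes with the smallest p in a comparison, but does not give a value for every such gene. Genes whose calls changed between fits, and genes that stood high or low in mouse 3, were named as well. A2ml1, Pzp and Clec2d lie outside the lists and were not chosen by that rule. Members and lists were chosen with earlier results of these data known. Alternatives were other scalings, DESeq2 1.42.0, other filters, a fit of the compared groups, replicate blocks and left-out libraries. Pairs rest on the mouse number of the titles. Deviations of same-numbered tumour and non-tumour pieces correlated at 0.0754 to 0.441 in exercised and -0.0835 to 0.213 in non-exercised mice. Some tumours correlated more with a non-tumour piece of another mouse of the arm. These were exercised mouse 1 (0.199 against 0.0754) and non-exercised mice 1 (0.0715 against -0.0835) and 2 (0.108 against 0.0966). Same-numbered tumours of different arms correlated at 0.0281 to 0.573, so these values do not settle the pairing. No replicate pair was near-identical (chi-square per gene at least 9.93).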

Additional observations from a re-analysis of the deposited data

Results flagged for a closer look

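Of 55 groups of 4 values looked at (the 10 members and their summed level, in 5 groups), 6 held a library far from its 3 neighbours. The nominal chance rate of the rule is about 1 in 20. It is no fair measure here, because the sum repeats the members and the counts are low. Non-tumour replicate 3 of the non-exercised high-fat mice stood high for Cd3e (2.38 CPM) and for Cd3d (1.94 CPM). Tumour replicate 3 of that arm stood high for Cd4 (2.97 CPM). Non-tumour replicate 1 of the exercised mice stood low for Cd8a (0.182 CPM). Non-tumour replicate 2 of the exercised mice stood high for Prf1 (0.492 CPM). Normal-diet replicate 1 held the single Pdcd1 count of its group (0.0583 CPM), a case that the rule always flags.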

How the results depend on the processing

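With all libraries, 0 members were called in any comparison, and no other scaling, filter, test or the mouse block changed that. With replicate number as a block, 1 member was called lower with diet (Cd4), but these mice share only a number. Without both pieces of mouse 3 of the non-exercised arm, 1 was called lower with diet (Cd4), and the log2 fold change turned to 0.53 for Cd4 with exercise in non-tumour pieces, and in tumours to 0.64 for Cd3e, 0.46 for Cd4, 0.41 for Nkg7 and 0.034 for Gzmb. The interaction of Cd3d had -0.026 with RLE factors, -0.034 with DESeq2 and -0.032 with no filter. With the mouse as a block, Cd8a in exercised tumours had -0.013 and the interaction of Prf1 0.29. With 2 counts added, the log2 ratio of Pdcd1 to Cd8a in non-exercised tumours differed by 0.00854. Leaving out 1 library gave 0 to 1 markers higher in tumours of exercised and 0 to 1 in tumours of non-exercised mice. Members whose log2 fold change crossed 0 when 1 library was left out had these ranges. Diet: Cd3d -0.12 to 1.40. Exercise in non-tumour pieces: Cd4 -0.80 to 0.53. Exercise in tumours: Cd3e -0.80 to 0.64, Cd4 -1.28 to 0.46, Gzmb -1.01 to 0.034, Nkg7 -0.90 to 0.41. Tumour in exercised mice: Cd8a -0.21 to 0.37, Gzmb -0.31 to 0.10. Tumour in non-exercised mice: Cd3d -1.07 to 0.55, Cd3e -1.37 to 0.41, Cd4 -1.64 to 0.62, Cd8a -0.72 to 0.28, Gzmb -1.05 to 0.25, Nkg7 -1.18 to 0.27. Interaction: Cd3d -1.10 to 0.52, Cd4 -1.50 to 0.76, Cd8a -0.26 to 0.74, Gzmb -0.33 to 0.96, Prf1 -0.34 to 1.23. Log2 ratios crossed 0 likewise. Cd3e to Ptprc with exercise in tumours had -0.066 to 0.77. Cd8a to Cd4 had -1.11 to 0.42 with exercise in non-tumour pieces, -0.69 to 0.23 with exercise in tumours and -0.33 to 1.19 in exercised tumours. Gzmb to Cd3e in non-exercised tumours had -0.073 to 0.55. Klrb1c to Cd3e had -0.49 to 0.67 with exercise in tumours and -0.074 to 1.39 in non-exercised tumours. Pdcd1 to Cd8a had -0.86 to 0.53 and -0.28 to 1.27 with exercise in non-tumour pieces and in tumours, and -0.29 to 1.48 and -0.64 to 0.44 in exercised and non-exercised tumours. Over all genes, DESeq2 called 95 higher and 22 lower with exercise in non-tumour pieces (edgeR: 2 and 0), and 61 higher and 18 lower in tumours (edgeR: 3 and 0). With upper-quartile scaling 1140 genes were lower with diet (edgeR with TMM: 1715). In exercised tumours 1490 were lower when only the compared groups were fitted (with all groups: 2304). The causes were not tested. The low counts of the members limit what any of these fits can resolve.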
